A study of Mus musculus with 4 samples.

Results

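The genes described here, 9 in all, build the sugar chains of cell surface and secreted proteins and were followed in mouse lymph nodes. They were chosen by symbol as genes of glycan and sialic acid synthesis whose names lie in those parts of mm10 chromosomes 4 and 6 where names appear to hold their own reads, and all 9 of 9 symbols were found once each among 56748 gene IDs. The RNA came from 4 mice with EAE (experimental autoimmune encephalomyelitis), in which the immune system is provoked to attack the brain and spinal cord. Of these, 2 had received 2-bromo-1,4-naphthalenedione (BrQ), a naphthoquinone carrying bromine, and 2 had received vehicle, and both groups therefore share the induced disease. Each mouse gave 1 library, numbered 1 or 3 in its group. The sources used here do not give strain, sex, age, dose or treatment schedule, and with 2 mice per group every SD rests on 2 values.

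Sialic acids are acidic sugars at the outer ends of glycan chains. They are made in the cytosol from an activated amino sugar, activated in the nucleus, and carried into the Golgi, where transferases attach them. On lymphocytes they are bound by lectins of the Siglec family such as CD22 of B cells, and on the high endothelial venules of lymph nodes sialylated O-glycans form part of the ligands by which L-selectin captures circulating lymphocytes. Among the genes here, Gne and Nans make sialic acid, Slc35a1 carries its activated form into the Golgi, and Casd1 adds an acetyl group to it. Galnt12 and C1galt1 lay the first sugars of mucin-type O-glycans. Alg2 acts early in N-glycan assembly in the endoplasmic reticulum, B4galt1 adds galactose in the Golgi, and Galt belongs to the pathway that brings free galactose into use.

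The libraries held 6813832 to 7989226 reads in gene intervals, while 86.8% to 88.8% of all read rows fell in no gene interval. The 9 genes together took 12252 to 13011 reads per library, with 508 to 3889 reads for each gene in each library. Of the gene reads, mitochondrial ones were 12.1% and 15.8% in BrQ against 20.6% and 30.3% in Vehicle. Across most of the genome, symbols of these count tables seem to hold reads of other places than the genes they name. A list of 73 other glycan genes, none inside the trusted parts, took 74 rows, of which 14 had no read in any library and 40 averaged under 10 reads. Of those rows 36 could be tested, and 9 were higher and 8 lower in BrQ. They are not read as values of the genes they name. Presence of reads is part of how the trusted parts were found, so the read counts of the 9 genes are no check of their names, and for a single gene the match of name and reads was not shown.

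All 9 genes lie on known positions of GRCm38 in the GENCODE M21 annotation. On chromosome 4 these are Slc35a1 (34663257 to 34687438, minus strand), B4galt1 (40804602 to 40854005, minus), Galt (41755228 to 41758695, plus), Gne (44034075 to 44084177, minus), Nans (46489248 to 46503632, plus), Galnt12 (47091909 to 47123070, plus) and Alg2 (47465067 to 47474333, minus). On chromosome 6 they are Casd1 (4600839 to 4643355, plus) and C1galt1 (7844842 to 7875687, plus). Each gene has a single count in a library, so no value belongs to a single exon or transcript. The sources used here do not give the strand setting of the counting, and 3 genes share exonic bases with a gene on the opposite strand. Nans shares 1356 bases (29.6% of its exonic bases) with Trim14, and Slc35a1 shares 83 (3.62%) with a small RNA model, Gm22849. For Galt 659 bases (26.7%) are shared. How reads on those bases were assigned is therefore not known.

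Upstream sequences are shown for the 3 genes whose window before the RefSeq start (GRCm38.p6) held at least 200 bases free of annotated exons. They belong to the gene that opens sialic acid synthesis (Gne), the Golgi carrier of its activated form (Slc35a1) and the transferase that prepares a site for it (B4galt1). Capitals mark matches on either strand to the GC box (spelled GGGCGG), the CCAAT box, the TATA box (spelled TATAAA), an E-box (spelled CACGTG) and the antioxidant response core (spelled TGACNNNGC), which may overlap one another. The first lies at chr4:44084178-44084427, the second at chr4:34687439-34687688 and the third at chr4:40854006-40854234, all read on the minus strand from the far end toward the start.
Gne: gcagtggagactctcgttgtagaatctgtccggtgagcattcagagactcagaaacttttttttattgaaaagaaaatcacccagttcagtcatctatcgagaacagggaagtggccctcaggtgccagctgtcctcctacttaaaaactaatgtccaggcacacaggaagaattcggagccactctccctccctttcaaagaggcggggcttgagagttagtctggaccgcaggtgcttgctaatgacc
Slc35a1: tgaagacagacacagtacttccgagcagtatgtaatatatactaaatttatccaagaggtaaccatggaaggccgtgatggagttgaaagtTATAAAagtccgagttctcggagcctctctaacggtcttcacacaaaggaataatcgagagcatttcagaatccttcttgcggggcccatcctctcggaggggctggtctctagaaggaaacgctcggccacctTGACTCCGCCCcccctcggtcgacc
B4galt1: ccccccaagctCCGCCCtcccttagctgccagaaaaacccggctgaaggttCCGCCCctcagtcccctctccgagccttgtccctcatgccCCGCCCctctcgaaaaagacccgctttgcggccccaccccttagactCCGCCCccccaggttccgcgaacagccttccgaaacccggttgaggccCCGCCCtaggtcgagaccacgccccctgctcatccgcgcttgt

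The RefSeq table held 2 windows each for Gne, Galt and Casd1, and only the one farthest upstream was searched. The Gne window so chosen held none of the 5 motifs, and 48.8% of its bases were G or C. B4galt1 held 5 GC boxes, and its full window of 250 bases was 66.4% G or C. Slc35a1 held 1 GC box, 1 TATA box and 1 antioxidant response core, the last overlapping the GC box. Of 32851 windows of 250 bases in the RefSeq table, 32.7% held a GC box, 33.8% a CCAAT box, 12.4% a TATA box, 10.2% an antioxidant response core and 6.02% this E-box. Windows of C1galt1 (5 GC boxes, 82.8% G or C), Galt (2 GC boxes, 2 CCAAT boxes and 1 E-box) and Casd1 (1 GC box) lay wholly or partly over annotated exons and are not printed. In all, 6 of 9 genes matched the table; Nans, Alg2 and Galnt12 did not. A match describes letters in a window and nothing about a factor.

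BrQ and Vehicle were compared to see which of these transcripts treatment left at another level. Of the 9 genes 5 fell in BrQ: Galt to 37.4% of the Vehicle level, Nans to 63.0%, Galnt12 to 63.3%, Gne to 68.3% and Alg2 to 70.8%. The other 4, Slc35a1, Casd1, B4galt1 and C1galt1, did not pass the test in either direction. Over all 10223 features tested, 22.2% passed as lower and 23.6% as higher, and over the 445 tested in the trusted parts 24.9% passed as lower and 19.3% as higher. The test was edgeR's quasi-likelihood test with Benjamini-Hochberg adjustment over all features and a threshold of 0.05. The median log2 fold change (BrQ over Vehicle) was -0.50 over the 9 genes, 0.05 over all features and -0.18 over the trusted parts.

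The calls depend on how the libraries are scaled, though none of the 9 genes changed sign with the scalings tried. Levels are given as CPM, the reads of a gene relative to the gene reads of its library, after TMM scaling. With library size alone the median of all features moved from 0.05 to 0.42, so the log2 fold change of every gene rose by a like amount. On that scale only Galt was called lower, and B4galt1, C1galt1 and Casd1 were called higher, where 10.5% and 35.3% of all features were called lower and higher. Relative to the median of the features tested, the median of the 9 genes stood at -0.55 with TMM and with library size alone, at -0.39 without BrQ replicate 3 and at -0.28 when fitted on the trusted parts and mitochondrial features alone. In CPM the groups did not overlap for 8 of the 9 genes. Both BrQ libraries were below both Vehicle libraries for 6 and above them for 2, where 36.2% and 39.9% of all tested features did the same.

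**Figure D1:**
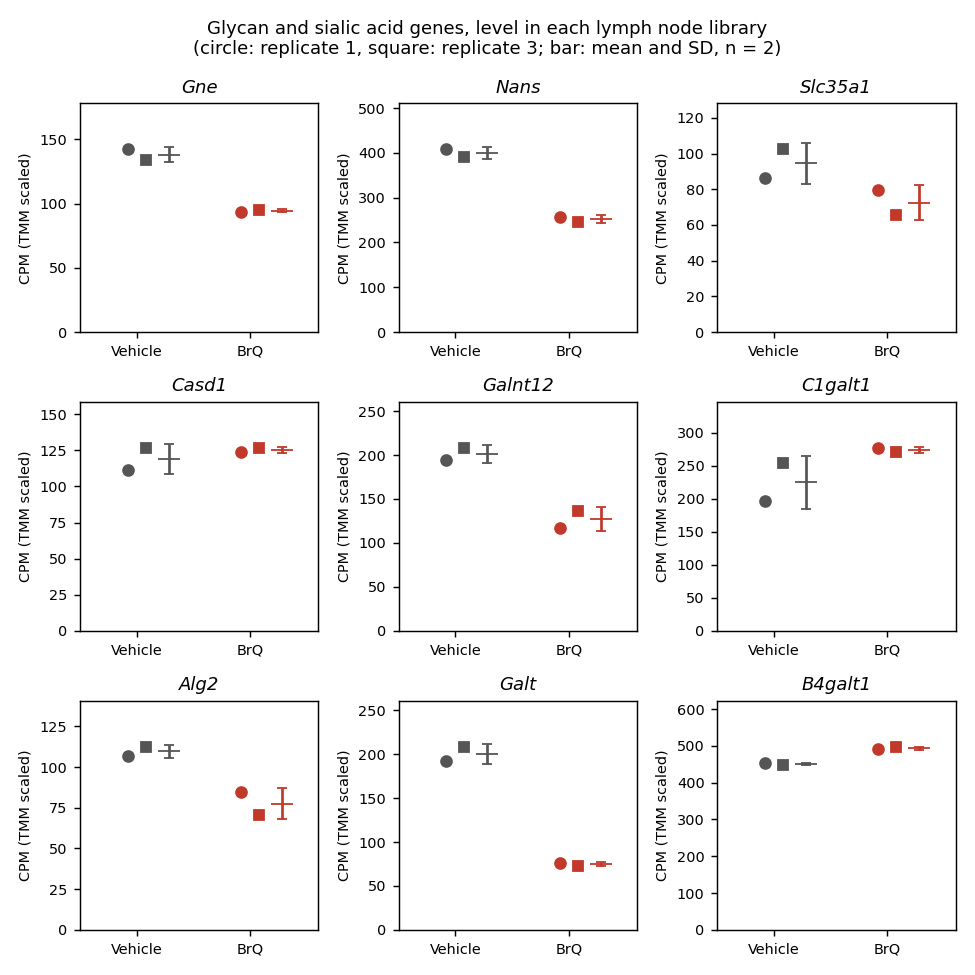
Level of each of the 9 genes in CPM (TMM scaled, vertical axis from 0) in the 2 Vehicle and 2 BrQ libraries, with circles for replicate 1, squares for replicate 3, and the mean and SD of each group beside them. The BrQ points of Galt sit at 73.2 and 76.7 CPM, far below its Vehicle points, while the points of Casd1 overlap between groups.

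Gne and Nans, the genes of the first enzymes of sialic acid synthesis, were each called lower in BrQ with TMM scaling. Gne encodes the enzyme with both an epimerase and a kinase activity that commits the cell to sialic acid synthesis. It stood at 93.6 and 95.1 CPM in BrQ replicates 1 and 3 and at 142.4 and 134.0 in Vehicle replicates 1 and 3, from 741, 737, 980 and 873 reads. The 2 BrQ libraries lay close together and below both Vehicle libraries. The log2 fold change was -0.55 ± 0.15 (SE), with an adjusted p of 0.0127 by edgeR. The call was lost in 5 of 16 alternatives, among them without BrQ replicate 1 (-0.53, adjusted p = 0.0925, edgeR), without BrQ replicate 3 (-0.55, adjusted p = 0.104, edgeR) and with library size alone (-0.18, adjusted p = 0.445, edgeR).

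Nans encodes the synthase of the next reactions, which makes the phosphorylated form of sialic acid. Its levels were 257.7 and 245.3 CPM in BrQ and 408.3 and 389.6 CPM in Vehicle, from 2040, 1901, 2810 and 2539 reads. The gap between groups was many times the distance between mice of a group. Nans had a log2 fold change of -0.67 ± 0.13 (SE) and an adjusted p of 0.00308 by edgeR. It was no longer called without BrQ replicate 3 (-0.62, adjusted p = 0.0583, edgeR) or with library size alone (-0.30, adjusted p = 0.168, edgeR). Trim14, an adaptor of antiviral signalling that shares exonic bases with Nans, moved the other way. Its reads numbered 1375 and 2022 with BrQ and 490 and 362 with vehicle, a log2 fold change of 1.78 ± 0.22 (SE) with an adjusted p of 0.000286 by edgeR. What part of either value comes from the shared bases was not tested.

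Gne and Nans kept nearly the same proportion to each other within a library. Their ratio of reads, which does not depend on scaling between libraries, was 0.363 and 0.388 in BrQ and 0.349 and 0.344 in Vehicle. The difference was 0.12 on the log2 scale (p = 0.33, two-sided exact permutation test), and 0.33 is the smallest p that 2 against 2 allows. The groups did not overlap, but the difference is small beside the falls of the genes themselves.

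The Golgi carrier and the acetyltransferase of sialic acid did not pass. Slc35a1, which carries CMP-sialic acid into the Golgi, stood at 79.6 and 65.5 CPM in BrQ and 86.4 and 102.5 CPM in Vehicle. Its log2 fold change was -0.38 ± 0.17 (SE), with an adjusted p of 0.0967 by edgeR and a 95% interval from -0.77 to 0.01. In raw reads the groups overlapped, with 630 and 508 in BrQ and 595 and 668 in Vehicle. It was called lower without Vehicle replicate 1 (-0.52, adjusted p = 0.0476, edgeR), and stood at 0.00 with library size alone. The ratio of Gne to Slc35a1 was 1.18 and 1.45 in BrQ and 1.65 and 1.31 in Vehicle, so the groups overlapped (difference -0.17 on the log2 scale, p = 0.67, exact permutation test).

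Casd1, which encodes the enzyme that O-acetylates sialic acid, held 981 reads in each BrQ library and 767 and 824 in the Vehicle libraries. Scaled, these were 123.9 and 126.6 CPM in BrQ and 111.4 and 126.4 CPM in Vehicle, and the groups overlapped. The log2 fold change was 0.07 ± 0.15 (SE), with an adjusted p of 0.704 by edgeR and a 95% interval from -0.26 to 0.41. That interval runs from 83.7% to 132.5% of the Vehicle level. With library size alone Casd1 was called higher (0.45, adjusted p = 0.0466, edgeR), and without Vehicle replicate 1 its sign turned (-0.04, adjusted p = 0.870, edgeR).

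Of the O-glycan genes, Galnt12 fell and C1galt1 did not pass. Galnt12, a transferase that starts mucin-type chains by adding N-acetylgalactosamine to serine or threonine, stood at 117.6 and 136.6 CPM in BrQ and 194.0 and 207.9 CPM in Vehicle. Both BrQ values were clearly below both Vehicle values. For Galnt12 the log2 fold change was -0.66 ± 0.15 (SE), with an adjusted p of 0.00592 by edgeR. The call was lost without BrQ replicate 1 (-0.54, adjusted p = 0.0743, edgeR) and with library size alone (-0.29, adjusted p = 0.201, edgeR).

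C1galt1, the transferase that adds galactose to that first sugar to form the core 1 structure, stood at 276.9 and 270.8 CPM in BrQ and 196.3 and 253.5 CPM in Vehicle. The BrQ libraries nearly coincided, while the Vehicle libraries lay far apart. For C1galt1 the log2 fold change was 0.28 ± 0.16 (SE), with an adjusted p of 0.158 by edgeR and a 95% interval from -0.06 to 0.63. It was called higher in 4 of 16 alternatives: without Vehicle replicate 3 (0.47, adjusted p = 0.0452, edgeR), with library size alone (0.67, adjusted p = 0.00352, edgeR), with library size from all read rows (0.50, adjusted p = 0.0184, edgeR) and when fitted on the trusted parts and mitochondrial features alone (0.46, adjusted p = 0.00844, edgeR).

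C1galt1 stood higher against Galnt12 within the BrQ libraries. The ratio of C1galt1 to Galnt12 reads was 2.35 and 1.98 in BrQ and 1.01 and 1.22 in Vehicle. The mean log2 ratio was 1.11 ± 0.18 with BrQ against 0.15 ± 0.19 with vehicle (SD, 2 mice each), a 1.94-fold difference that no scaling between libraries can alter (p = 0.33, two-sided exact permutation test, the smallest possible). With any 1 library left out the difference ran from 0.83 to 1.09 on the log2 scale.

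Of the N-glycan genes, Alg2 fell and B4galt1 did not pass. Alg2 encodes a mannosyltransferase that extends the lipid-linked precursor of N-glycans. It stood at 84.4 and 70.7 CPM in BrQ and 106.8 and 112.3 CPM in Vehicle. The groups did not overlap, but BrQ replicate 1 came closer to Vehicle than BrQ replicate 3. The log2 fold change was -0.50 ± 0.16 (SE), with an adjusted p of 0.0291 by edgeR. This was the least secure of the 5 falls: 8 of 16 alternatives lost it, among them without BrQ replicate 1 (-0.62, adjusted p = 0.0627, edgeR), without BrQ replicate 3 (-0.37, adjusted p = 0.259, edgeR), without Vehicle replicate 3 (-0.47, adjusted p = 0.0760, edgeR) and with library size alone (-0.13, adjusted p = 0.617, edgeR).

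B4galt1 encodes the galactosyltransferase that extends N-acetylglucosamine ends in the Golgi and so prepares a site for sialic acid. It was the most abundant of the 9, at 491.2 and 497.0 CPM in BrQ and 452.9 and 449.2 CPM in Vehicle. Replicates agree within a few CPM and the groups did not overlap, yet the difference was small. The log2 fold change was 0.13 ± 0.13 (SE), with an adjusted p of 0.410 by edgeR. The 95% interval runs from 90.3% to 132.9% of the Vehicle level. With library size alone it was called higher (0.50, adjusted p = 0.0204, edgeR).

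Galt had the largest change of the 9 genes. It encodes galactose-1-phosphate uridylyltransferase, which turns galactose phosphate into UDP-galactose, the donor that galactosyltransferases use. Its reads numbered 607 and 567 with BrQ and 1321 and 1358 with vehicle, so the raw counts already separated the groups. Scaled, this was 76.7 and 73.2 CPM against 191.9 and 208.4 CPM. BrQ over Vehicle gave Galt a log2 fold change of -1.42 ± 0.15 (SE), with an adjusted p of 0.000146 by edgeR and a 95% interval from 29.8% to 47.0% of the Vehicle level. Galt was called lower in 16 of 16 alternatives, with log2 fold changes from -1.50 to -1.04. What part of the Galt change lies on its shared exonic bases was not tested. Galt also ends shortly before a stretch of chromosome 4 where names and reads are in doubt.

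**Figure D2:**
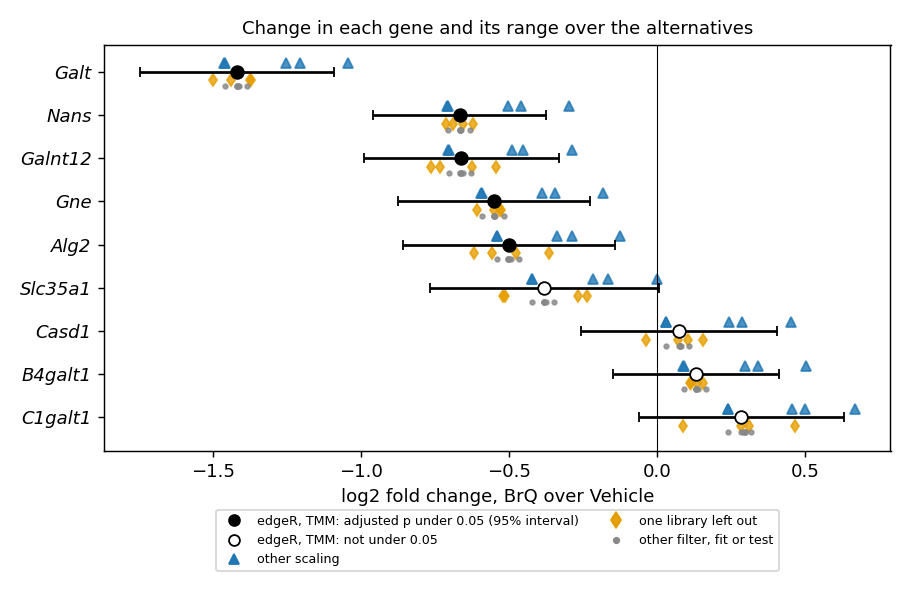
Log2 fold change of BrQ over Vehicle for each gene, with the edgeR estimate and its 95% interval as circles (filled where the adjusted p was under 0.05), and estimates under other scalings, with one library left out, and under other filters, fits or tests as coloured marks. Galt stays between -1.50 and -1.04 in all 16 alternatives, while library size alone, the rightmost triangle of each gene, moves all 9 genes to the right by a like amount.

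The galactose genes stood in different proportions in the groups. The ratio of B4galt1 to Galt reads was 6.41 and 6.79 in BrQ and 2.36 and 2.16 in Vehicle. The mean log2 ratio was 2.72 ± 0.06 with BrQ against 1.17 ± 0.09 with vehicle (SD, 2 mice each), a 2.93-fold difference (p = 0.33, two-sided exact permutation test, the smallest possible). The distance between groups was far larger than the distance between mice of a group.

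Taken as shares of the reads of all 9 genes, B4galt1 made up 30.7% and 31.4% in BrQ and 24.0% and 22.6% in Vehicle. C1galt1 made up 17.3% and 17.1% in BrQ and 10.4% and 12.8% in Vehicle. Galt took 4.79% and 4.63% in BrQ and 10.2% and 10.5% in Vehicle, and Nans 16.1% and 15.5% against 21.6% and 19.6%. The groups overlapped in this measure for Slc35a1 alone (4.97% and 4.15% against 4.57% and 5.17%). How often groups separate by share was not computed over all features. In CPM both BrQ libraries lay below both Vehicle libraries for 36.2% of all tested features and above them for 39.9%. The shares add up to a whole, so a fall in some raises the others, and each test gives at best p = 0.33 (exact permutation test).

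**Figure D3:**
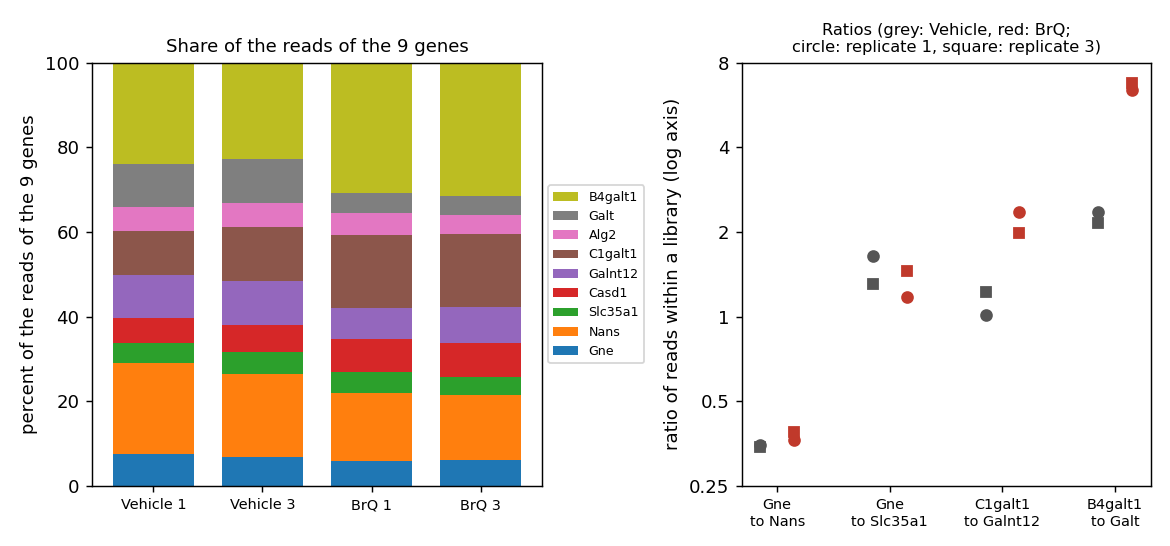
Left, the percent of the reads of the 9 genes that each gene took in each library; right, the ratio of reads of 4 gene pairs within each library on a log axis, grey for Vehicle and red for BrQ. The B4galt1 to Galt ratio lies at 6.41 and 6.79 in BrQ and at 2.36 and 2.16 in Vehicle, and the Gne to Slc35a1 ratio overlaps between groups.

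Divided by exonic length, the order of levels differed between groups. In Vehicle, B4galt1 was highest at 106.5 ± 0.618 CPM per kilobase, followed by Galnt12 at 87.8 ± 4.32, Nans at 87.1 ± 2.88 and Galt at 81.0 ± 4.71 (SD, n = 2 each). Galnt12 and Nans overlapped. Slc35a1 (41.2 ± 4.95), C1galt1 (36.9 ± 6.64) and Alg2 (31.8 ± 1.14) each overlapped with the next in line, the last of them with Casd1 (29.5 ± 2.63). Gne was lowest, with no overlap, at 21.7 ± 0.936 CPM per kilobase. In BrQ, B4galt1 stood at 116.7 ± 0.969 CPM per kilobase, and Galnt12 at 55.6 ± 5.89 again overlapped with Nans at 54.9 ± 1.91. C1galt1 came next at 44.95 ± 0.701 CPM per kilobase. Galt went from rank 4 to rank 7, at 30.3 ± 1.005. Ranks 5 to 7 lay close together: Slc35a1 (31.6 ± 4.33) overlapped with Casd1 (31.0 ± 0.467), and Casd1 with Galt. Gne was again lowest at 14.8 ± 0.167 CPM per kilobase. The lengths are those of GENCODE M21, which may not be the gene models used for counting.

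Other glycan and glycolipid genes of the trusted parts were taken from a list, of which 6 are reported. Of these 5 could be tested, 2 were lower, 1 was higher, and Fut9, a fucosyltransferase, had no read in any library. Of the 445 features tested in the trusted parts, 24.9% were lower and 19.3% higher, so these counts are not read as a result about glycan genes. Gba2, a glucosylceramidase, fell from 415.9 ± 15.8 to 201.4 ± 3.47 CPM (log2 fold change -1.05 ± 0.13, adjusted p = 0.000339, edgeR). Pigo, which acts in the assembly of glycolipid anchors, fell from 305.0 ± 23.1 to 167.3 ± 3.53 CPM (-0.87 ± 0.14, adjusted p = 0.00105, edgeR). Bpnt2, a Golgi nucleotide phosphatase needed for sulfation of glycans, rose from 87.6 ± 9.30 to 118.0 ± 6.08 CPM (0.43 ± 0.16, adjusted p = 0.0464, edgeR) but was called in 8 of 16 alternatives. Ugcg and Manea did not pass.

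Markers of lymph node cell types in the trusted parts moved between the groups too. The summed level of the B cell markers Pax5 and Cd72 was 2075 to 2126 CPM in BrQ and 3254 to 3391 CPM in Vehicle; Cd72 fell and Pax5 did not pass. That of the T cell markers Il7r, Tox and Sit1 was 679.2 to 754.8 CPM in BrQ and 1005 to 1070 CPM in Vehicle; Il7r and Sit1 fell and Tox rose, though with library size alone Il7r (adjusted p = 0.278, edgeR) and Sit1 (adjusted p = 0.0886, edgeR) lost the call. Col1a2 of fibroblasts stood at 11.5 to 13.6 CPM in BrQ and 17.9 to 25.5 CPM in Vehicle. The stromal chemokines Ccl19 and Ccl21a summed to at most 3.41 CPM in any library, Ccl21a being at 0 throughout, as was Lep of adipocytes. For these low rows the match of name and reads was not shown, so they are not read as absent expression. The part of the cell type markers in the changes of the 9 genes was not tested, and in bulk tissue fewer cells of a type and less RNA per cell cannot be told apart.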

How the data were processed

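The submitters' processing notes name mm10, HTSeq 0.11.2, HISAT2 2.1.0 and Trim Galore 0.6.2; the sources used here do not give the annotation release or strand setting. Each mouse has a table of raw read counts as deposited, over 56748 gene IDs. The 5 rows at its end carry no gene name and hold 87.0% to 89.0% of all reads; library sizes and tests left them out. Sample titles gave the groups. Replicates were not copies: comparing the libraries of a group gave a chi-square per degree of freedom of 12.4 (BrQ) and 26.6 (Vehicle). Libraries came from different mice. The spread behind each edgeR p-value and SE is not that of 2 mice a group alone. It is moderated toward a trend over all features tested.

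Positions, exonic lengths and overlaps came from GENCODE M21 (GRCm38), which held 52073 of the IDs. The members, the trusted parts of the genome (5 segments) and the lists were chosen with earlier results of these data known. Tests used edgeR 4.0.16 (quasi-likelihood, filterByExpr, TMM) in R 4.3.3 on all features and 4 libraries, with group as the only term and Benjamini-Hochberg adjustment at 0.05. The SE is the log2 fold change divided by the root of F. Named genes are the 9 members, genes whose exons overlap theirs, a list in the trusted parts and the markers; some genes this rule names are left out here. Other scalings, filters and fits were tried, as were a replicate block, DESeq2 1.42.0, voom in limma 3.58.1 and fits without each library in turn. Figures used matplotlib 3.10.9.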

Additional observations from a re-analysis of the deposited data

Results flagged for a closer look

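Reads in no gene interval stood out as data outside the gene counts that took a larger share of all read rows in BrQ than in Vehicle. Their mean share of all read rows was 88.7% with BrQ against 87.3% with vehicle, and the groups did not overlap. The share falls as gene reads in the same total rise, mitochondrial ones among them. Mitochondrial reads were 15.8% and 12.1% of gene reads in BrQ and 20.6% and 30.3% in Vehicle. Their part in this difference was not tested, so it is not read as a change in reads outside genes. Reads in no gene interval enter no comparison here.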

How the results depend on the processing

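Counting members by direction, 5 passed as lower and 0 as higher. With library size alone 1 was lower and 3 higher (median log2 fold change -0.13), with the sum of all read rows as library size 3 and 1 (-0.29), and fitted on the trusted parts and mitochondrial features 4 and 1 (-0.34); with no low count filter 3 passed, all 3 lower. Over all features tested the shares passing as lower and higher were 10.5% and 35.3%, 15.4% and 30.2%, 19.2% and 24.3%, and 5.58% and 6.21% in these 4 settings. Leaving out 1 library gave 2 to 6 passing, 2 to 6 lower and 0 to 1 higher, with medians from -0.53 to -0.37, where 18.6% to 39.7% of all features passed; the group left with 1 mouse is assumed to vary like the other. RLE and upper quartile factors, a mean of at least 10 reads, the legacy fit, DESeq2 and limma voom called the same 5 genes as lower. These settings use the same 4 libraries, and from 19.9% (DESeq2) to 23.6% (upper quartile) of all features passed as lower in them. The 0 higher calls of edgeR compare with 0 by DESeq2 and 0 by limma voom, and no higher member had an unadjusted p under 0.05 (smallest 0.0971, C1galt1). With the replicate number as a block, 4 passed, all lower, Alg2 being lost (-0.50, adjusted p = 0.0615, edgeR). In that fit 19.3% of all features passed as lower and 41.0% in either direction. Deviations of same-numbered libraries had a correlation of -0.12 over 10223 features, so the numbers may not pair the mice. With crossed pairing, chosen after seeing the data, 6 passed, all lower. There 25.1% of all features passed as lower and 51.7% in either direction.

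Signs turned for Casd1 without Vehicle replicate 1 (-0.037), for Pax5 (0.15) and Manea (0.12) with library size alone, and for Manea without Vehicle replicate 3 (0.0071; -0.52 without Vehicle replicate 1). Differences of the 4 ratios with 1 library left out ran from 0.07 to 0.16 (Gne to Nans), -0.33 to 0.00 (Gne to Slc35a1), 0.83 to 1.09 (C1galt1 to Galnt12) and 1.48 to 1.61 (B4galt1 to Galt). The causes were not tested, beyond the scalings' own shift of all features.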
